A study of Mus musculus with 17 samples.

Results

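The genes described here make and load MHC class I molecules. They are 10 named genes, all of which were found among the 48397 genes of the bulk tables and among the 28208 genes common to the single-cell matrices. They were chosen by name and not by a measured value, though with earlier results of these data known. H2-K1 and H2-D1 encode classical class I heavy chains and B2m encodes the light chain that all class I molecules share. Tap1 and Tap2 form the transporter that carries peptides into the endoplasmic reticulum, and Tapbp encodes tapasin, which holds the empty class I molecule at that transporter. Psmb8, Psmb9 and Psmb10 encode the catalytic subunits of the immunoproteasome, which take the places of the constitutive subunits Psmb5, Psmb6 and Psmb7. Nlrc5 encodes the transactivator of class I genes.

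Class I molecules display peptides cut by the proteasome to CD8 T cells, and natural killer cells sense their loss. Interferon gamma raises the transcription of the whole set through IRF1 and NLRC5. In tumours the set is studied because cells that show little class I are poorly seen by CD8 T cells, while macrophages and dendritic cells of the same tumour can present or cross-present tumour peptides.

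The 5 single-cell libraries, 1 per genotype, came from mouse pancreatic tumours taken 3 weeks after orthotopic implantation and sorted for CD45+ leukocytes. The genotypes were PDL1 floxed/floxed-CD4Cre, PDL1 floxed/WT-CD4Cre, CD4Cre, PDL1 floxed/floxed and WT, where the CD4Cre transgene drives recombination from the Cd4 promoter and so in T cells. The labels give 1 genotype per library and none of its own for the implanted tumour cells. The labels name these libraries tumor infiltrating T cells, but most cells carried markers of other types. The 12 bulk libraries, 3 per group, were labelled as splenic T cells of WT mice stimulated through CD3 and CD28. The groups were titled PD1_Fc (with PD-1 Fc), Ctrl_Fc (with control Fc), PDL1_Fc and Control (stimulation alone). PD-1 Fc and control Fc were used at 2.5 ug/ml, and no dose was taken for PDL1_Fc. Titles and treatment field disagree for 4 of the bulk libraries, as that field calls PD1_Fc_3 a PDL1 Fc library and the 3 PDL1_Fc libraries PD1 Fc. No PD-L1 Fc is mentioned in the protocol. Titles set the groups, and grouping by the treatment field was an alternative. Whether each bulk library had its own mouse or culture is not stated, so p-values there measure a spread between libraries that may be technical.

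In the MHC on chromosome 17 of GRCm38 (GENCODE M21) lie Tapbp (33915899 to 33929292, plus), H2-K1 (33996017 to 34000347, minus), Psmb9 (34181987 to 34187764, minus), Tap1 (34187553 to 34197225, plus), Psmb8 (34197721 to 34201454, plus) and Tap2 (34203527 to 34216321, plus), and H2-D1 (35262730 to 35267499, plus) lies further along the same chromosome. B2m is on chromosome 2 (122147686 to 122153083, plus), and Psmb10 (105935735 to 105938444, minus) and Nlrc5 (94434356 to 94527272, plus) are on chromosome 8. Promoters of 8 of the 10 members are in the RefSeq table for GRCm38.p6, from 250 bases before to 50 bases after the start given there. These starts can differ from the GENCODE limits above. The windows of Psmb8 (34197945 to 34198244) and Tapbp (33919228 to 33919527) lie inside those limits. Those of H2-K1, H2-D1, B2m and Tap1 are printed because they show what the heavy chains, the light chain and the transporter share and do not share next to their starts. Capitals mark matches on either strand to GGGATTCCC (the core of a kappa B site), AANNGAAA (a core of interferon-response elements), TGACG (a core bound by CREB and ATF factors) and ATTGG (a Y box, bound by NF-Y).
H2-K1 chr17:34000298-34000597 minus: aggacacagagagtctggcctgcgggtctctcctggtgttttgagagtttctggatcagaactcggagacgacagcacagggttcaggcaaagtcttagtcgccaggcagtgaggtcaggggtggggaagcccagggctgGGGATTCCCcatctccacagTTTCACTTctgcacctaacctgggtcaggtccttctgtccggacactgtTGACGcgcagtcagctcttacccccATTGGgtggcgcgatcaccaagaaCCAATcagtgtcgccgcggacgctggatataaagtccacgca
H2-D1 chr17:35262844-35263143 plus: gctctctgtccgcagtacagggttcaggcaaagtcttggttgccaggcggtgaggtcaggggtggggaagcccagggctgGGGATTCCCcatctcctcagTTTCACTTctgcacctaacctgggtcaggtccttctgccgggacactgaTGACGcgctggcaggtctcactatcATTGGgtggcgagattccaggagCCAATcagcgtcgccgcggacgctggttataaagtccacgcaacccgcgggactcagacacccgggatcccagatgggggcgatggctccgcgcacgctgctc
B2m chr2:122147437-122147736 plus: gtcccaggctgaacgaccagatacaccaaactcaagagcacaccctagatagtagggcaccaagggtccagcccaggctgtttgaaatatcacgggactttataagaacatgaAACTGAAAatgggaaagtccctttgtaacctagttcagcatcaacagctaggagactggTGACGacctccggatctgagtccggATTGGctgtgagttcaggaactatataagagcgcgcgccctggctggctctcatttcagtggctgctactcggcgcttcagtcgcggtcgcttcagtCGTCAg
Tap1 chr17:34187306-34187605 plus: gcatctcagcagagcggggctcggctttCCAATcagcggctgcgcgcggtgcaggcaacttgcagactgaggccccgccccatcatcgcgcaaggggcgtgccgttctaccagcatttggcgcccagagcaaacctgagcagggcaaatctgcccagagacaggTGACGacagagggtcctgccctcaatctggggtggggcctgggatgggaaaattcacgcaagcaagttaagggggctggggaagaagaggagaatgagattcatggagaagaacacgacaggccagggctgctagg

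The H2-K1 and H2-D1 windows aligned over 227 bases with 206 identical (90.7%). Both held the kappa B letters, which occurred in 116 of 32851 promoter windows of the genome (0.353%). AANNGAAA was found in the H2-K1, H2-D1 and B2m windows and in 23.9% of all windows. TGACG was found in those of H2-K1, H2-D1, B2m, Tap1 and Psmb9 and in 20.8% of all windows. ATTGG occurred in the same 5 and in Tapbp, and in 37.4% of all windows. None of the 4 was found in the windows of Psmb8 and Psmb10. The Psmb9 window is largely the other strand of the Tap1 window, with 275 bases in common and 226 bases between their RefSeq starts. In the printed windows no matches of different motifs overlapped. The motifs were chosen after the sequences were seen, and a match is only a description of the letters.

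Some features of the libraries bear on all results. Many cell barcodes stood in more than one of the 3 libraries with CD4Cre. PDL1 floxed/floxed-CD4Cre and CD4Cre shared 1414, PDL1 floxed/WT-CD4Cre and CD4Cre 1710, and PDL1 floxed/floxed-CD4Cre and PDL1 floxed/WT-CD4Cre 1856, against 12 for PDL1 floxed/floxed and WT. Only the copy with at least 4 times the UMIs of the next was kept, which left 2785 to 4251 cells per library, and results were recomputed with all copies and with no shared barcode. The matrices of the 3 CD4Cre libraries list 31053 genes and those of PDL1 floxed/floxed and WT list 28692, so CD4Cre and the set of libraries cannot be told apart. The files of PDL1 floxed/WT-CD4Cre and WT carry each other's short names. Labels were followed, so values given for these 2 genotypes could belong to the other one. Cells were put into classes by marker UMIs that include no member, and a class was used in a library that held at least 20 of its cells. Cd274, the floxed gene, had 38.7 CPM (UMI counts per 1000000) in T cells of PDL1 floxed/floxed-CD4Cre (95% Poisson interval 21.2 to 65.0, 14 UMIs in 52 cells). It had 43.3 CPM in PDL1 floxed/WT-CD4Cre, 69.9 in CD4Cre, 8.89 in PDL1 floxed/floxed and 6.03 in WT, but UMI tags may lie outside the deleted part, so this does not check the deletion.

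Among the 11 cell classes with at least 2 libraries, migratory dendritic cells and macrophages high in the chemokines Cxcl9 and Cxcl10 had the highest or second-ranked medians of H2-K1, H2-D1 and B2m. Type 1 dendritic cells led for Tap1, Tap2, Psmb8 and Psmb9 but had the lowest medians of H2-K1 and Nlrc5. Type 1 cells were counted only in PDL1 floxed/floxed and WT, where they were not last for either gene. Nlrc5 had 12.4 and 13.7 CPM in these type 1 cells, against 8.05 and 10.1 CPM in type 2 and 16.8 and 14.1 CPM in B cells. H2-K1 had 704 and 651 CPM, against 519 and 328 CPM in neutrophils and 996 and 1006 CPM in B cells. Orders in the text are over these 11 classes. Values are medians over libraries of a class's summed UMIs in CPM, to be compared within 1 gene only. B2m had a median of 4768 CPM in the Cxcl9/Cxcl10-high macrophages (4 libraries, 4577 to 8418). In migratory dendritic cells it had 4671 CPM, in tumour epithelial cells 2706 (5 libraries, 1031 to 2754) and in B cells 1570.4. H2-K1 was highest in migratory dendritic cells (2718 CPM) and lowest in type 1 dendritic cells (678), which were counted only in PDL1 floxed/floxed and WT, where H2-K1 was low in most classes. H2-D1 ran from 2896 CPM in the Cxcl9/Cxcl10-high macrophages to 1016 in plasma cells.

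Among the same 11 classes, the peptide supply genes had another leader. Type 1 dendritic cells, known for cross-presentation, had the highest medians of Tap1 (313 CPM), Tap2 (232), Psmb8 (1551) and Psmb9 (979), and migratory dendritic cells were next for all 4. Tapbp and Psmb10 were highest in the Cxcl9/Cxcl10-high macrophages, at 486 and 235 CPM. Nlrc5 had its highest median in CD8 T cells (93.004 CPM), followed by migratory dendritic cells (88.01). CD8 T cells were above migratory dendritic cells in PDL1 floxed/floxed-CD4Cre and PDL1 floxed/WT-CD4Cre, on 22 and 48 UMIs. They were below in CD4Cre and in PDL1 floxed/floxed, which had most CD8 T cells (443 cells, 27.2 against 30.8 CPM). Tumour cells were last for Tap2 (17.4 CPM), Psmb8 (44.9) and Psmb9 (129). Neighbours in the order overlapped in their library ranges at every step for H2-K1, H2-D1, Tap1, Tapbp, Psmb10 and Nlrc5. The exceptions were 4 of 10 steps for Psmb8, 2 for Tap2, 2 for Psmb9 and 1 for B2m. For Psmb8 and Tap2 these included the steps at either end, type 1 over migratory dendritic cells and plasma cells over tumour cells.

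**Figure D1:**
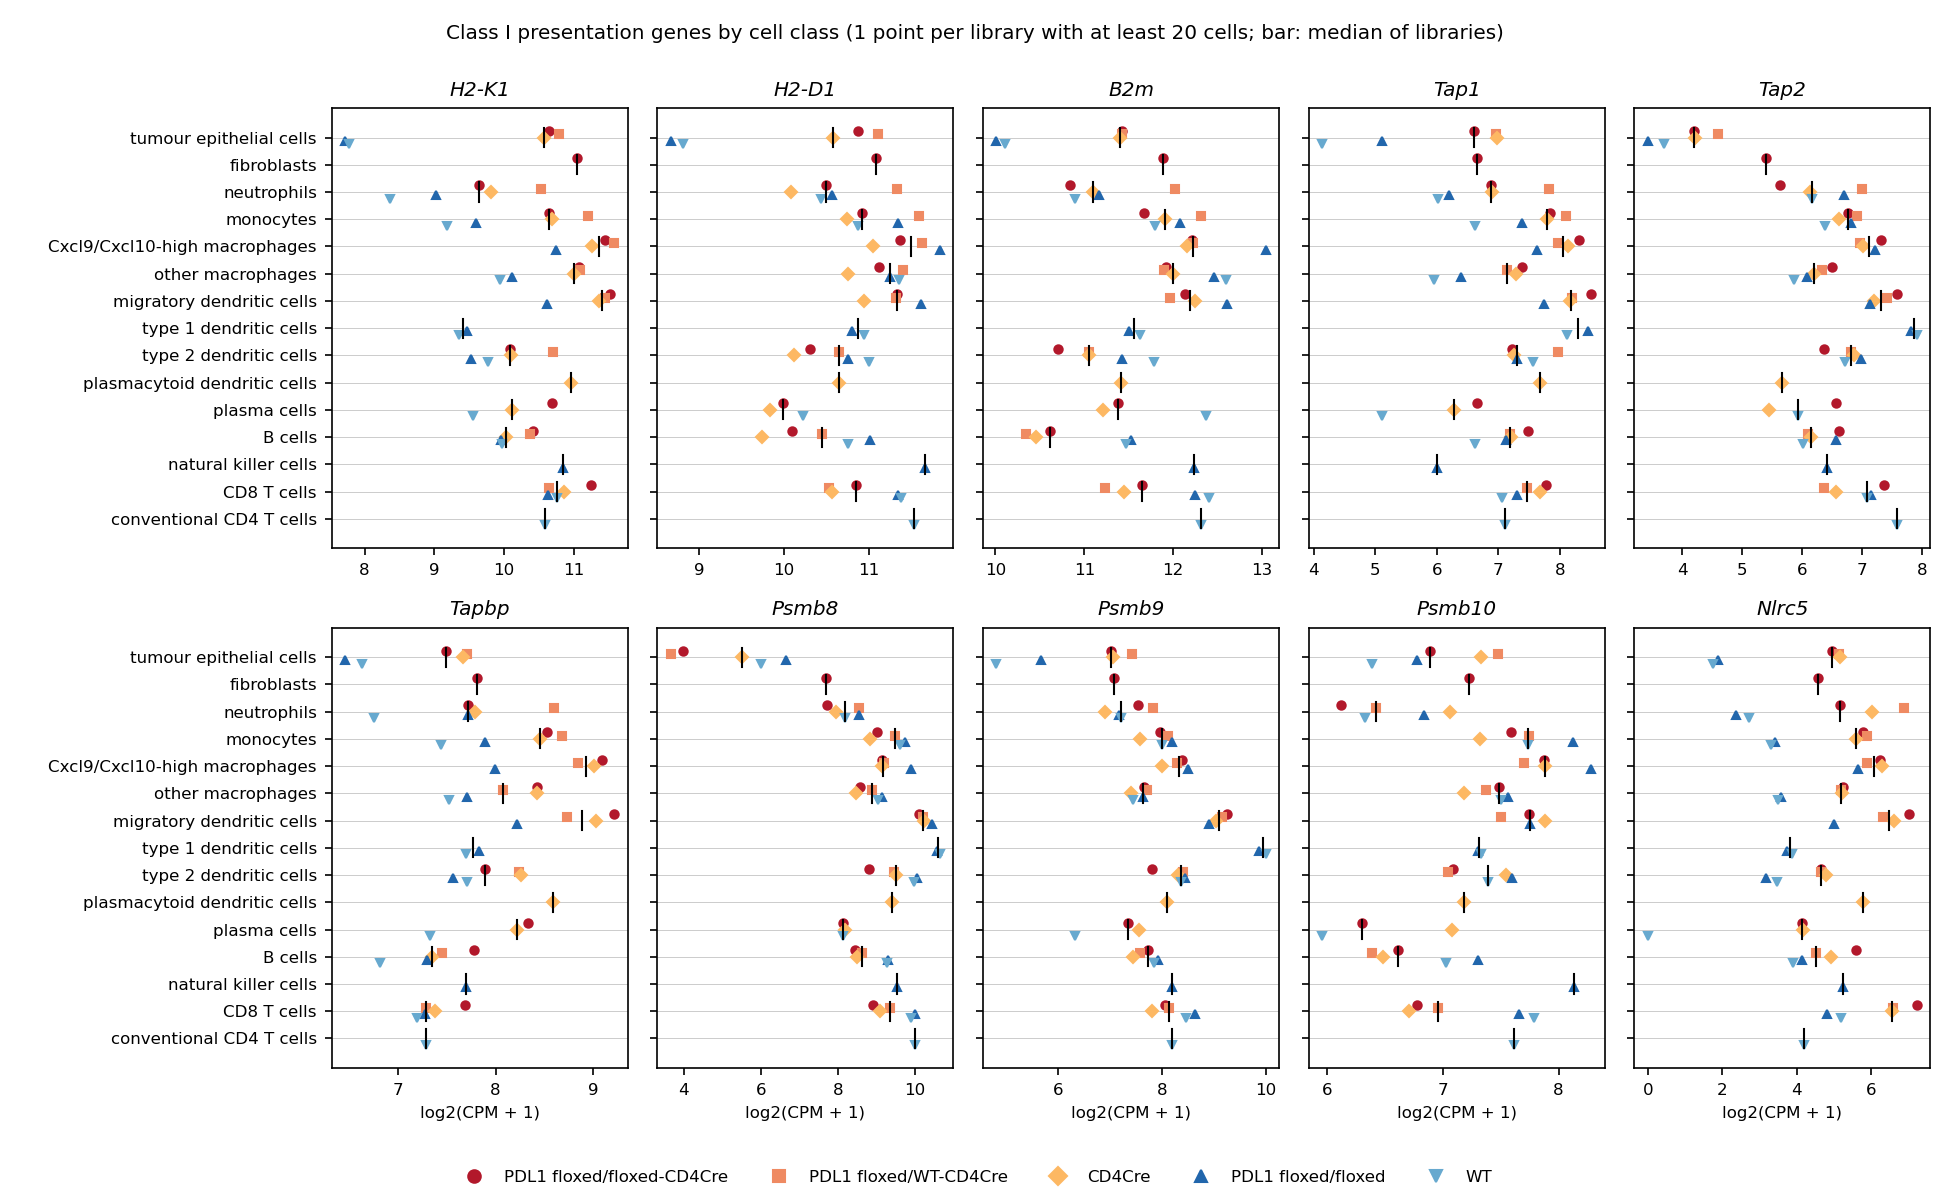
Levels of the 10 genes by cell class, in CPM of the class on a log axis, with 1 point per library that held at least 20 cells and a bar at the median of libraries. Psmb8 and Tap2 separate tumour cells from all other classes, while B2m medians of the 11 classes with at least 2 libraries run from 1570.4 to 4768 CPM.

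The sort for CD45+ cells still left 1489 cells with epithelial markers, here called tumour epithelial cells, although epithelium of the host was not told apart. There were 479 in PDL1 floxed/floxed-CD4Cre, 646 in PDL1 floxed/WT-CD4Cre, 97 in CD4Cre, 80 in PDL1 floxed/floxed and 187 in WT. Ptprc, which encodes CD45, had 3.91 to 23.2 CPM in them. Keratin genes Krt8, Krt18 and Krt19 were at 724.7 CPM or more in all 5 libraries. Epcam, which encodes an epithelial adhesion protein, had 3.14, 0.335 and 0 CPM in the 3 libraries with CD4Cre, in the order of the genotypes above, against 199 CPM in PDL1 floxed/floxed and 379 CPM in WT. Krt7 behaved likewise, at 5.48, 0.634 and 4.08 CPM in the libraries with CD4Cre and 402 and 387 CPM in PDL1 floxed/floxed and WT, so the epithelial cells of the 2 sets differ in their markers.

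Tumour cells carried less message than the macrophages of the same library for 10 of 10 members by edgeR's quasi-likelihood test with the library as a block (adjusted p under 0.05, Benjamini-Hochberg over 12206 genes). Of all genes tested, 32.5% passed in that direction, and the median log2 difference was -1.48 over the members and 0.01 over all genes. The fitted scale sets tumour cells below their CPM. H2-K1 had 1599, 1763 and 1521 CPM in tumour cells of PDL1 floxed/floxed-CD4Cre, PDL1 floxed/WT-CD4Cre and CD4Cre, against 2254, 2345 and 2103 CPM in their macrophages. In PDL1 floxed/floxed and WT it had 209.5 and 218 CPM in tumour cells, against 1119.8 and 986 CPM in macrophages. Tumour cells were lower in every library, and in the 2 libraries without CD4Cre the gap was far wider (log2 ratios -2.42 and -2.18) than in the 3 with it (-0.50, -0.41 and -0.47). The fitted log2 difference was -1.49 (SE 0.42, adjusted p = 0.0192), and over 16 edgeR and DESeq2 settings its adjusted p reached 0.132.

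B2m and H2-D1 split in the same way. B2m had 2738, 2754 and 2706 CPM in tumour cells of the libraries with CD4Cre, against 3993, 3979 and 4159 CPM in macrophages, and 1031 and 1103 CPM in tumour cells of PDL1 floxed/floxed and WT, against 5694 and 6213 CPM in macrophages. Its fitted log2 difference was -1.62 (SE 0.44, adjusted p = 0.0158). For H2-D1 the log2 ratios were -0.28, -0.34 and -0.22 with CD4Cre and -2.61 and -2.56 without it, and the fitted difference of -1.48 (SE 0.52, adjusted p = 0.0428) lost its call when any 1 of the 5 libraries was left out. H2-K1 and H2-D1 have near-identical relatives in the mouse MHC, so reads that the authors' counting could not place, or placed on a relative, leave their levels uncertain. The difference between the 2 sets of libraries was not tested. It moves with Epcam and Krt7 and with leukocyte markers. The 5 macrophage markers summed to 62.9, 41.5 and 42.1 CPM in tumour cells of the libraries with CD4Cre and to 358 and 582 CPM in those of PDL1 floxed/floxed and WT, against 10501 to 24331 CPM in macrophages. Their part in the result was not tested.

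Psmb8 showed the widest gap. It had 14.9, 11.7 and 44.9 CPM in tumour cells of PDL1 floxed/floxed-CD4Cre, PDL1 floxed/WT-CD4Cre and CD4Cre, against 406, 492 and 383 CPM in their macrophages. In PDL1 floxed/floxed and WT it had 99.2 and 62.6 CPM in tumour cells, against 568 and 533 CPM in macrophages. The 5 tumour values all lay below the 5 macrophage values, with a fitted log2 difference of -4.07 (SE 0.48, adjusted p = 0.000435). Within the tumour cells the order of libraries was the reverse of that of H2-K1, H2-D1 and B2m. The summed B cell markers were lowest in the 2 libraries in which Psmb8 was lowest, at 3.78, 2.87 and 59.4 CPM in the libraries with CD4Cre and 49.1 and 82.1 CPM in PDL1 floxed/floxed and WT. Their part in the Psmb8 level was not tested.

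The other members fell as well. Tap2, the other chain of the transporter, had 17.4, 23.03, 17.6, 9.75 and 12.02 CPM in tumour cells of the 5 libraries, in the order PDL1 floxed/floxed-CD4Cre, PDL1 floxed/WT-CD4Cre, CD4Cre, PDL1 floxed/floxed and WT, against 99.03, 87.3, 80.2, 67.9 and 58.02 CPM in macrophages. The groups did not overlap, and the fitted log2 difference was -2.63 (SE 0.16, adjusted p = 2.51e-05). Tapbp differed by -1.24 (SE 0.14, adjusted p = 0.000285), Tap1 by -1.30 (SE 0.27, adjusted p = 0.00550) and Psmb9 by -1.54 (SE 0.42, adjusted p = 0.0169). Psmb10 had the smallest difference, -0.82 (SE 0.23, adjusted p = 0.0181), and was level with macrophages in PDL1 floxed/WT-CD4Cre (178 against 173 CPM) and CD4Cre (159.6 against 158 CPM). In CPM the log2 ratios ran from -2.80 to -1.92 for Tap2, -1.27 to -0.55 for Tapbp and -1.13 to 0.04 for Psmb10. Nlrc5 had 29.9, 33.95 and 34.9 CPM in tumour cells of the libraries with CD4Cre and 2.69 and 2.37 CPM in those of PDL1 floxed/floxed and WT, against 42.2, 39.9997 and 42.4 CPM and 11.8 and 10.3 CPM in macrophages, with a fitted difference of -1.15 (SE 0.36, adjusted p = 0.0295). Psmb10 and Nlrc5 lost their calls without PDL1 floxed/floxed-CD4Cre and without PDL1 floxed/floxed.

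**Figure D2:**
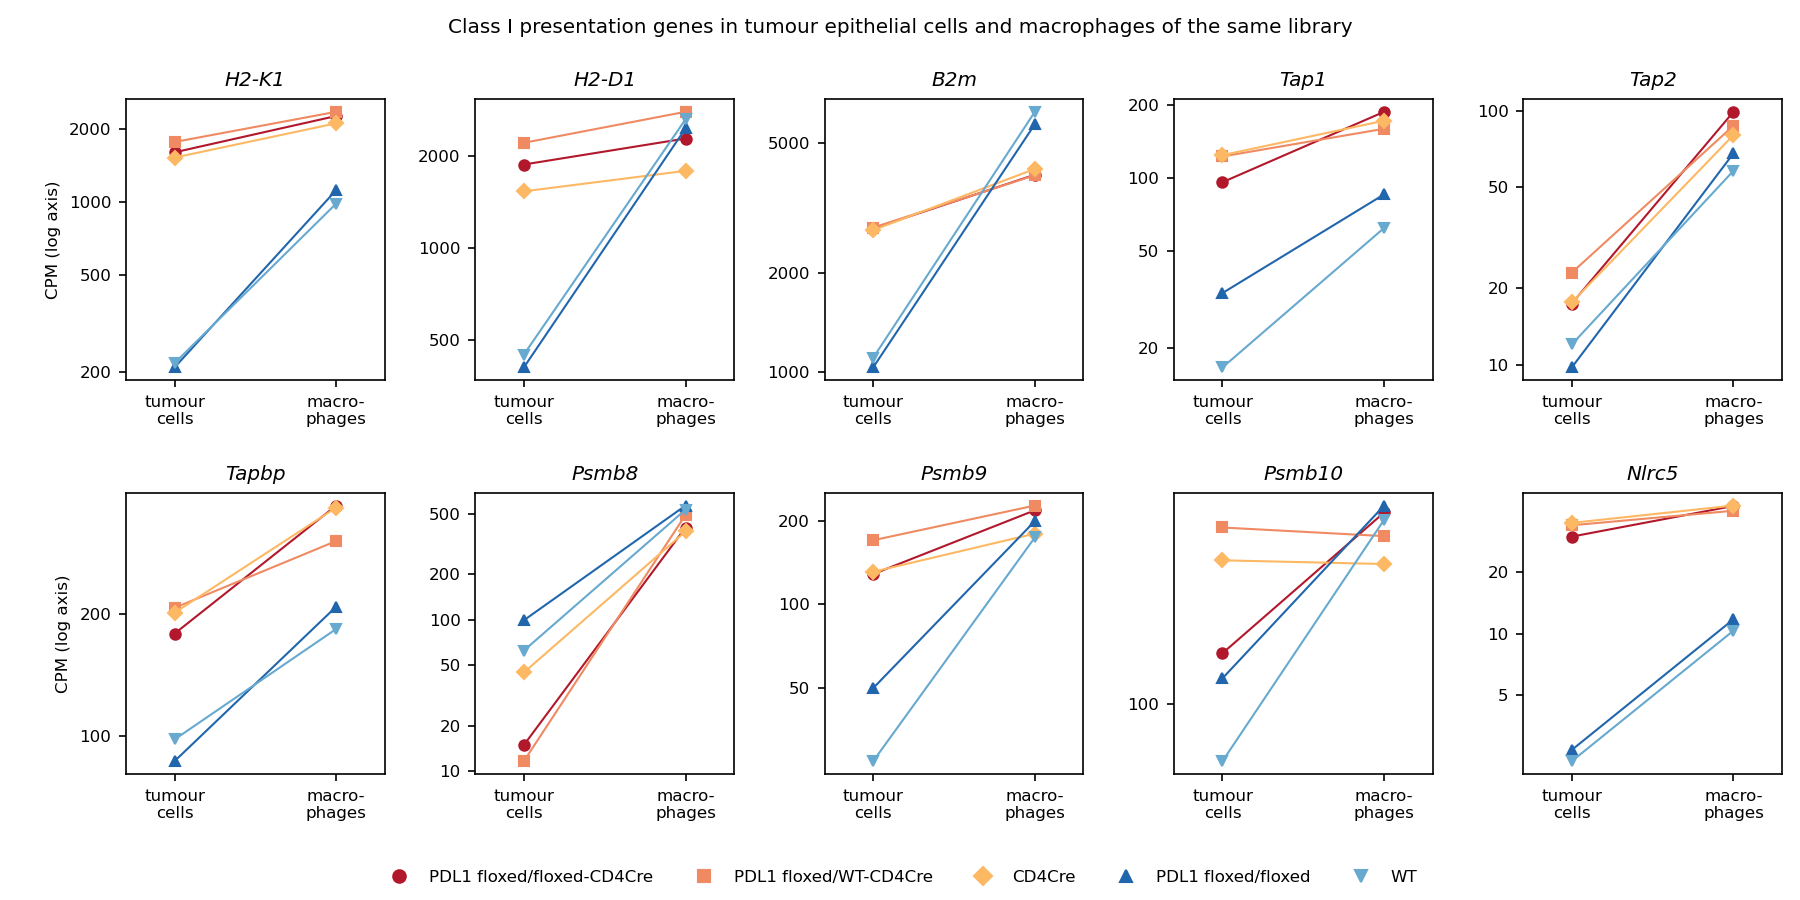
Levels of the 10 genes in tumour epithelial cells (left) and macrophages (right) of the same library, in CPM on a log axis, with 1 line per library. All lines rise towards macrophages for 9 genes, Psmb10 is flat in 2 libraries, and for the heavy chains, B2m, Tap1 and Nlrc5 the lines of PDL1 floxed/floxed and WT start well below the other 3.

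Around the members, the same contrast reached most of the class I pathway. Of 14 other class I heavy chain genes 10 could be tested and 9 fell in tumour cells, among them H2-Q7 (-4.48 on the log2 scale), H2-Q6 (-4.42), H2-T24 (-3.04) and Cd1d1 (-2.64), which presents lipids. All 6 peptide loading and trimming genes fell, including the peptide-trimming enzyme Erap1 (-1.36) and the editor Tapbpl (-1.07), as did 4 of 4 proteasome activator and assembly genes (-0.62 for Psme1 and -0.59 for Psme2). Of all genes 32.7% rose in tumour cells. Of the constitutive catalytic subunits, Psmb5 rose by 0.44 and Psmb7 by 0.38, and Psmb6 did not pass. Of 11 other 20S core subunits 3 rose and 3 fell. Of 10 transcription factors of class I genes 2 rose and 6 fell, and those that fell included Irf8 (-5.69), Irf1 (-1.15) and Irf2 (-1.08).

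Within macrophages, cells high in Cxcl9 and Cxcl10 carried more of the whole set. The 2 chemokines are targets of interferon gamma and draw T cells. The class held 431 cells and was compared with other macrophages in the 4 libraries with at least 20 such cells, which leaves out WT. All 10 members were higher (edgeR quasi-likelihood test with the library as a block), while 4.19% of the 10570 genes tested passed in that direction. The median log2 difference was 0.61 over the members and -0.03 over all genes. Tap1 had 318, 249.8, 281 and 196 CPM in the Cxcl9/Cxcl10-high macrophages of PDL1 floxed/floxed-CD4Cre, PDL1 floxed/WT-CD4Cre, CD4Cre and PDL1 floxed/floxed, against 166, 140.4, 155 and 83.5 CPM in the other macrophages. Every high-chemokine value was above all values of the other macrophages, with a log2 difference of 0.97 (SE 0.10, adjusted p = 3.52e-06).

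Nlrc5 moved furthest. It had 74.96, 58.8, 78.1 and 48.99 CPM in the high class of these 4 libraries, against 36.7, 35.8, 36.3 and 10.9 CPM in the other macrophages, again without overlap, and differed by 1.09 (SE 0.14, adjusted p = 7.50e-05). H2-K1 had 2805, 3058, 2445 and 1715 CPM against 2161, 2187, 2045 and 1106 CPM, higher in each library but overlapping across them, and differed by 0.46 (SE 0.09, adjusted p = 0.00255). The light chain and the second heavy chain moved least, B2m by 0.36 (SE 0.08, adjusted p = 0.00987) and H2-D1 by 0.35 (SE 0.08, adjusted p = 0.0129). Between these lay Tap2 (0.86), Psmb9 (0.72), Tapbp (0.63), Psmb8 (0.59) and Psmb10 (0.55). H2-D1 lost its call without PDL1 floxed/floxed-CD4Cre, PDL1 floxed/WT-CD4Cre or CD4Cre, B2m without either of the first 2, and H2-K1 without PDL1 floxed/WT-CD4Cre. In edgeR fits without the library block 0 members passed (5 under an unadjusted p of 0.05), as with all classes together (6 under it), while all 10 differences kept their sign within each of the 4 libraries. Of the 4858 macrophages, 187 lay within 25% of the chemokine cut, so the class is a range and not a type.

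The lists divided in this contrast. Of the other heavy chains 6 of 10 tested rose, led by H2-Q4 (0.81) and H2-Q7 (0.78). Proteasome activator genes rose in 3 of 4 cases, Psme2 by 0.75, Psme1 by 0.52 and the assembly factor Pomp by 0.36. Among the transcription factors, Irf1 (1.28), Rfx5 (1.03), Irf8 (0.60) and Irf2 (0.39) rose. By contrast 0 of 3 constitutive catalytic subunits and 0 of 11 other 20S subunits passed, with list medians of 0.17 for both, and 1 of 6 loading genes did, Tapbpl (0.87).

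Dendritic cells were compared by subset. Migratory dendritic cells, marked by Ccr7 and Fscn1, are the mature state that carries antigen to lymph nodes. All 10 members were higher in them than in type 2 dendritic cells, a subset known for class II presentation, over the 4 libraries other than WT. Of the 8194 genes tested 22.8% passed in that direction, and the median log2 difference was 0.94 over the members and -0.02 over all genes. Nlrc5 had 128, 79.5, 96.5 and 30.8 CPM in migratory cells of PDL1 floxed/floxed-CD4Cre, PDL1 floxed/WT-CD4Cre, CD4Cre and PDL1 floxed/floxed, against 24.3, 24.04, 26.8 and 8.05 CPM in type 2 cells. The groups did not overlap, and the log2 difference of 2.13 (SE 0.20, adjusted p = 9.21e-06) was the widest of the set. B2m had 4484, 4009, 4859 and 6223 CPM against 1669, 2119, 2122 and 2743 CPM, also without overlap, and differed by 1.29 (SE 0.11, adjusted p = 4.79e-06).

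H2-K1 had 2926, 2795, 2640.1 and 1570.3 CPM in migratory cells, against 1082, 1669.9, 1093 and 739 CPM in type 2 cells, higher within each library and overlapping between libraries, and differed by 1.24 (SE 0.13, adjusted p = 1.94e-05). H2-D1 (0.96), Psmb9 (0.95), Tapbp (0.92), Psmb8 (0.90) and Tap1 (0.83) rose by similar amounts. Tap2 (0.70) and Psmb10 (0.52) rose least, and both lost their calls without PDL1 floxed/floxed-CD4Cre. Of the other heavy chains 6 of 8 tested rose, with H2-Q6 at 3.23, H2-Q7 at 2.78 and H2-Q4 at 2.63. Psme2 rose by 2.24 and Psme1 by 1.53. The loading list divided, since Tapbpl rose by 2.31 while the chaperone genes Calr (-1.57), Hspa5 (-1.56) and Pdia3 (-0.89) fell, as did 24.1% of all genes tested.

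Type 1 dendritic cells had more of the peptide supply genes than type 2 cells, while the heavy and light chains did not pass the test. The comparison rests on PDL1 floxed/floxed and WT, the libraries with at least 20 cells of both. By edgeR 4 members were higher, where 9.60% of 8076 genes passed in that direction. Psmb9 had 938 and 1019.9 CPM in type 1 cells of PDL1 floxed/floxed and WT, against 345 and 329 CPM in type 2 cells, a log2 difference of 1.59 (SE 0.11, adjusted p = 1.17e-10). Tap2 had 224 and 239 CPM against 125 and 104 CPM (1.04 (SE 0.15, adjusted p = 2.09e-05)), and Tap1 350.0 and 276 CPM against 157 and 187 CPM (1.00 (SE 0.15, adjusted p = 2.68e-05)). Psmb8 had 1505 and 1596 CPM against 1063 and 1001 CPM and differed by 0.65 (SE 0.08, adjusted p = 3.71e-06). In these 4 genes both type 1 values lay above both type 2 values. The log2 differences that did not pass were -0.16 for H2-K1, 0.07 for H2-D1, 0.04 for B2m, 0.23 for Tapbp, -0.14 for Psmb10 and 0.65 for Nlrc5. The activator genes Psme1 (1.07), Pomp (0.88) and Psme2 (0.41) rose among 4, and the constitutive subunit Psmb7 rose by 0.85.

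Neutrophils, short-lived granulocytes, were set against monocytes in all 5 libraries. Psmb8 had 211, 372, 247, 370.3 and 289 CPM in neutrophils of PDL1 floxed/floxed-CD4Cre, PDL1 floxed/WT-CD4Cre, CD4Cre, PDL1 floxed/floxed and WT, against 518, 716, 456, 851 and 785 CPM in monocytes. No neutrophil value reached the lowest monocyte value, and the fitted log2 difference was -0.84 (SE 0.20, adjusted p = 0.0122), on a scale where TMM factors lift neutrophils above their CPM. Psmb10 differed by -0.86 (SE 0.23, adjusted p = 0.0213). These were the 2 members of 10 called lower, where 9.49% of 7375 genes passed in that direction. In CPM, H2-K1 (log2 -0.99 to -0.58), B2m (-0.91 to -0.30), Tap1 (-1.20 to -0.29), H2-D1, Psmb9 and Tapbp were also lower in all 5 libraries. Tap2 was lower in 4 of 5 and Nlrc5 in 3 of 5. Without the library block edgeR called 0 members, with 2 under an unadjusted p of 0.05. Both calls were also lost without PDL1 floxed/floxed-CD4Cre, PDL1 floxed/floxed or WT, and B2m (-0.44) gained one without PDL1 floxed/WT-CD4Cre.

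Plasma cells, which secrete antibody, had more B2m, Tapbp and H2-K1 than B cells over PDL1 floxed/floxed-CD4Cre, CD4Cre and WT, 3 members of 10 where 13.9% of 7008 genes passed in that direction. Called lower in plasma cells were 0 members, against 13.1% of genes, on a fitted scale that lifts plasma cells above their CPM. In CPM, Psmb8 (log2 -1.15 to -0.30), Tap1 (-1.54 to -0.83) and Tap2 (-0.72 to -0.06) were lower in all 3 libraries. The CPM log2 ratios were 0.76 to 0.90 for B2m and 0.52 to 0.88 for Tapbp, below their fitted values. B2m had 2664, 2366 and 5304 CPM in plasma cells, against 1570.4, 1402 and 2837 CPM in B cells, higher in each library, and differed by 1.61 (SE 0.28, adjusted p = 0.000574). Tapbp had 320.0, 298 and 159 CPM against 218, 162 and 111 CPM and differed by 1.44 (SE 0.26, adjusted p = 0.000732). H2-K1 had 1641, 1104 and 753 CPM against 1362, 1046 and 1006 CPM, so the WT library points the other way in CPM, and its fitted 0.78 (SE 0.25, adjusted p = 0.0287) was lost without PDL1 floxed/floxed-CD4Cre or CD4Cre. Without WT, H2-D1 and Psmb10 also passed. Of the loading genes 5 of 6 rose, led by the endoplasmic reticulum chaperones Hspa5 (2.92) and Calr (2.85). Immunoglobulin transcripts take a large part of plasma cell message, and the edgeR fit without the library block called 0 members, with 2 under an unadjusted p of 0.05.

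T and natural killer cells were too few for the comparisons planned at 20 cells. At a minimum of 10 cells, chosen after the data were seen, edgeR called 0 of 10 members between CD8 and conventional CD4 T cells (5.09% of 2438 genes called, with 1 member under an unadjusted p of 0.05). It called 0 of 9 tested between regulatory and conventional CD4 T cells (3.12% of 2179 genes called, with 1 member under an unadjusted p of 0.05). Between natural killer and CD8 T cells it called 1 of 9, Tap1, which differed by -1.34 on the log2 scale (SE 0.33, adjusted p = 0.0234), where 5.27% of 3132 genes were called. The natural killer cells of CD4Cre, PDL1 floxed/floxed and WT held only 5, 12 and 3 Tap1 UMIs in 11, 23 and 10 cells. DESeq2 was not run at this minimum.

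The balance between the immunoproteasome and the constitutive proteasome was read as the share of each inducible subunit in the sum with its counterpart. Psmb8 made up 5.004%, 3.63%, 15.1%, 27.3% and 19.2% of the UMIs of Psmb8 and Psmb5 in tumour cells of the 5 libraries in the order used above. In macrophages it made up 71.7%, 72.97%, 72.95%, 77.8% and 75.8%. All tumour cell shares of Psmb8 lay below all its macrophage shares. The share of Psmb9 in its pair with Psmb6 was 35.2%, 40.04% and 35.8% in tumour cells of the libraries with CD4Cre and 13.99% and 9.01% in those of PDL1 floxed/floxed and WT. In macrophages it was 57.4%, 48.3%, 49.9%, 41.1% and 34.9% in the same order of libraries, so the Psmb9 ranges of tumour cells and macrophages overlapped. In tumour cells the Psmb9 and Psmb8 shares ordered the 2 sets of libraries in opposite ways. Psmb10 made up 28.3% to 49.6% of its pair with Psmb7 in tumour cells and 57.0% to 64.8% in macrophages. Migratory dendritic cells had the highest Psmb8 share, 86.2% to 90.2%, while type 1 dendritic cells combined a Psmb8 share of 84.6% and 86.9% and a Psmb9 share of 74.2% and 75.6% with a Psmb10 share of only 34.6% and 35.9%. UMIs of 2 genes need not be captured equally, so shares are compared between cells and not with an equal mix.

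**Figure D3:**
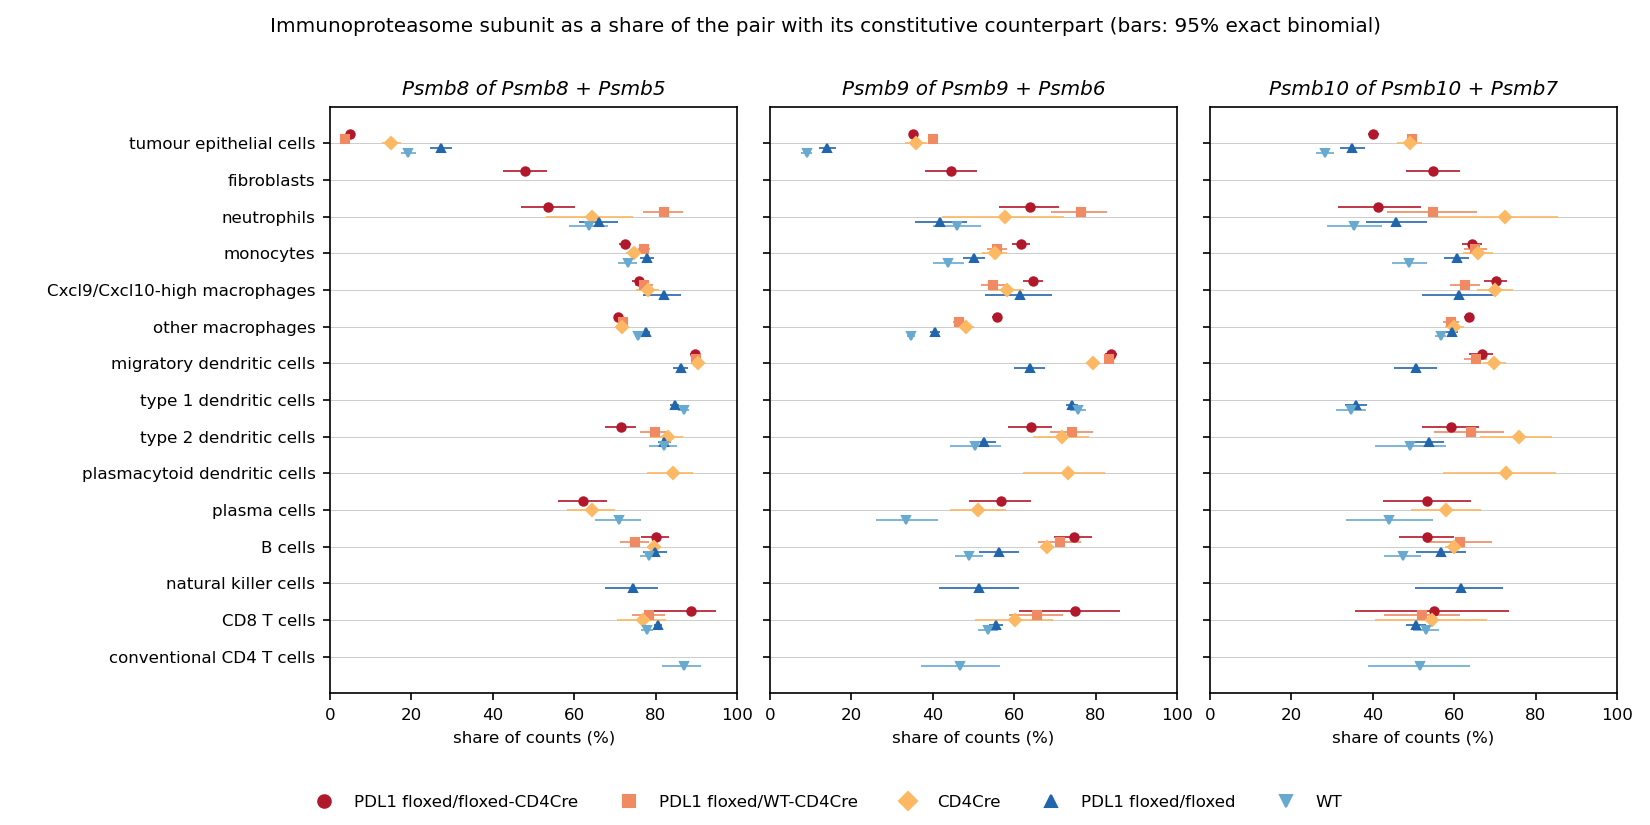
Share of the inducible subunit in the UMIs of its pair, by class and library, with 95% exact binomial intervals that cover counting error only. Tumour cells sit at 3.63% to 27.3% for Psmb8, and macrophages at 71.7% to 77.8%.

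Over the 36 sums of a library and a class with at least 50 cells, the members varied together. This is a description, since the sums share libraries, depth and base composition. The correlation (Pearson, log2 CPM plus 1) with the mean z-score of the 10 members was highest for Tap1 (0.90) and H2-D1 (0.86) and lowest for Psmb10 (0.71) and Psmb8 (0.64). Each gene is part of that mean, which raises its own value. The closest pairs were H2-K1 with Nlrc5 (0.91), H2-D1 with B2m (0.89) and Tap2 with Psmb8 (0.87). H2-K1 and Nlrc5 also moved with the set of libraries within a class. Other macrophages of PDL1 floxed/floxed and WT had 1106 and 980 CPM of H2-K1, against 2045 to 2187 CPM with CD4Cre. Nlrc5 had 10.9 and 10.3 CPM there, against 35.8 to 36.7 CPM, and the part of the library set in the correlation was not tested. The loosest were Psmb8 with Nlrc5 (0.16) and with H2-K1 (0.19). Of 5963 other genes at 20 CPM or more, those most like the members were Epsti1 (0.81), Slamf7 (0.80), Peli1 (0.80), Rab8b (0.79) and Prr5l (0.78).

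Genotypes were compared within classes. With 1 library per genotype there was no test, and a pair of gene and class was counted when it differed by at least 1.5-fold at a mean of 20 CPM or more. For PDL1 floxed/floxed-CD4Cre against CD4Cre, 5 of 98 pairs in 10 classes were higher (5.10%) and 5 lower (5.10%), where over all genes 10.6% of pairs were higher and 8.43% lower. For PDL1 floxed/WT-CD4Cre against CD4Cre, 15 of 90 pairs were higher (16.7%) and 2 lower (2.22%), where over all genes the shares were 9.02% and 11.9%. For PDL1 floxed/floxed against WT, 6 of 72 pairs were higher (8.33%) and 0 lower, where over all genes the shares were 8.41% and 6.22%. The first 2 comparisons share the CD4Cre library. The shares of members past the fold were near or below those of all genes, except for the higher pairs of PDL1 floxed/WT-CD4Cre.

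In tumour cells, Psmb8 was the only member past the fold for both libraries labelled with floxed Cd274 and CD4Cre. That label need not hold for the implanted tumour cells themselves. It had 280 UMIs (14.9 CPM) in PDL1 floxed/floxed-CD4Cre, against 143 UMIs (44.9 CPM) in CD4Cre, a log2 ratio of -1.59 (95% counting interval -1.89 to -1.29), where 1.55% of genes in these cells were as much lower. In PDL1 floxed/WT-CD4Cre it had 313 UMIs (11.7 CPM), a log2 ratio of -1.95 (-2.24 to -1.65), where 2.12% of genes were as much lower. The B cell and neutrophil marker sums also differed, at 3.78 and 16.3 CPM in PDL1 floxed/floxed-CD4Cre, 2.87 and 12.1 CPM in PDL1 floxed/WT-CD4Cre and 59.4 and 53.4 CPM in CD4Cre, and their part in the result was not tested. H2-K1, H2-D1 and B2m did not pass the fold in tumour cells in any of the 3 comparisons. In PDL1 floxed/floxed against WT, 3 members were higher in tumour cells, as were 3.41% of genes: Tap1 with 33.6 against 16.6 CPM (1.02, interval 0.60 to 1.44), Psmb9 with 49.8 against 27.1 CPM (0.88) and Psmb8 with 99.2 against 62.6 CPM (0.66).

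Most of the higher pairs of PDL1 floxed/WT-CD4Cre came from neutrophils. There 9 members were higher and 1, Psmb10, was lower (156 against 44 cells), while 24.4% and 35.7% of all genes in neutrophils passed the fold in these directions. The log2 ratio of Psmb10 was -0.65 with an interval of -1.35 to 0.08 that holds 0, and it turned to 0.473 without shared barcodes. H2-D1 had 2575 CPM in PDL1 floxed/WT-CD4Cre neutrophils, against 1083 CPM in CD4Cre neutrophils (log2 ratio 1.25, interval 1.05 to 1.45), and B2m had 4149 against 2188 CPM (0.92). H2-D1 was also higher in other classes with more cells, at 3088 against 1715 CPM in monocytes (0.85), 2716 against 1733 CPM in other macrophages (0.65) and 1397 against 852 CPM in B cells (0.71), where 6.44%, 3.32% and 6.01% of all genes in these 3 classes passed the fold upwards. Other heavy chain genes were higher in 28 of 60 pairs of the same comparison and lower in 1, where 9.02% of gene and class pairs over all genes were higher and 11.9% lower. In CD8 T cells 2 members were past the fold, both higher in PDL1 floxed/floxed-CD4Cre than in CD4Cre with 20 against 38 cells, where 25.4% of genes were: Tap2 (0.81, interval -0.04 to 1.66) and Nlrc5 (0.69, -0.19 to 1.55), both with intervals that hold 0.

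**Figure D4:**
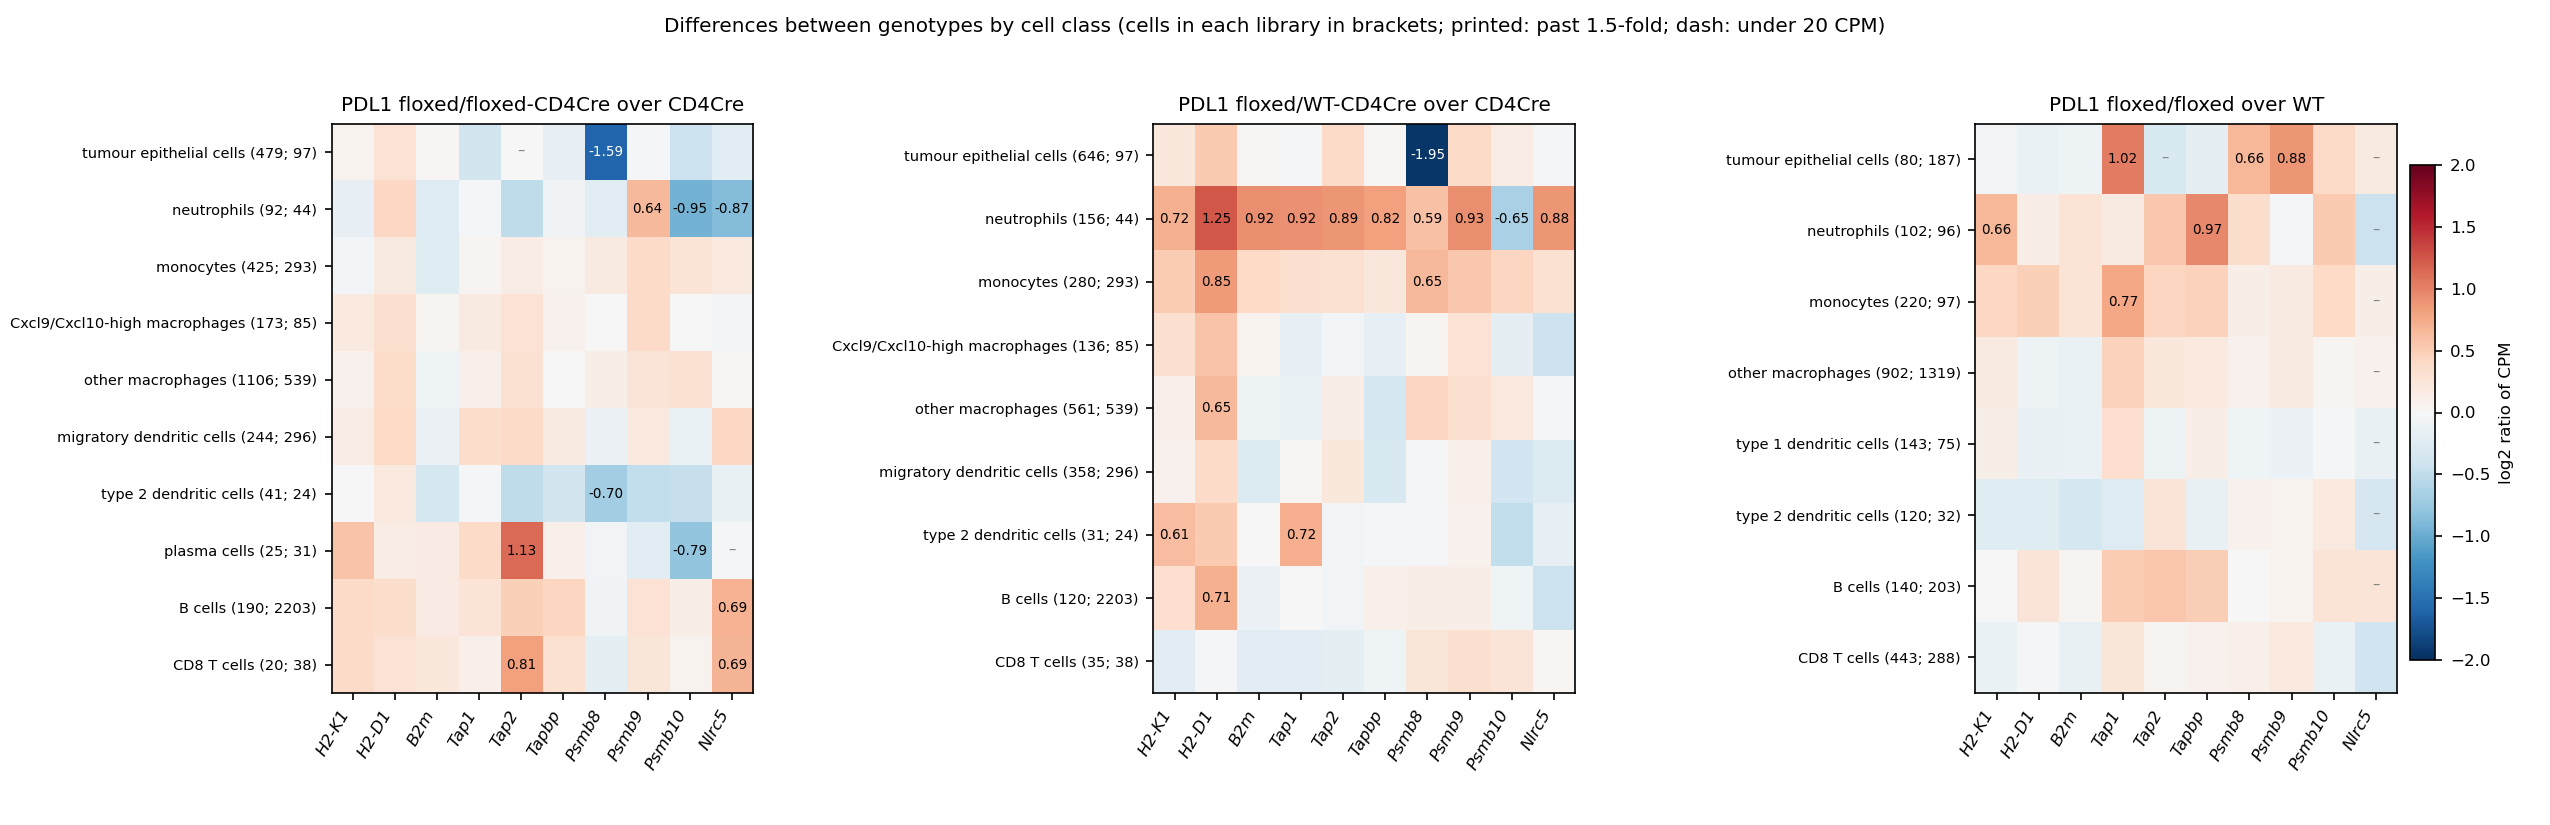
Log2 ratio between genotypes for each gene and class, with the cells of each library in brackets and the value printed where it passed 1.5-fold (a dash marks a gene under 20 CPM). All 10 genes are printed in the neutrophil row of PDL1 floxed/WT-CD4Cre against CD4Cre, and Psmb8 is printed in the tumour cell row of all 3 comparisons.

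The bulk libraries fell into 2 sets that differed in depth, in the share of reads aligned and in 2 of 3 markers of T cells. Gene counts summed to 4364803 to 5006301 in PD1_Fc and 3473884 to 4662029 in Ctrl_Fc, where 79.9% to 80.4% of reads were not aligned. They summed to 14880455 to 16020727 in PDL1_Fc and 16732833 to 18557390 in Control, where 8.95% to 11.2% of reads were not aligned. Cd3e, which encodes a chain of the T cell receptor complex, had 229, 262 and 253 CPM in PD1_Fc and 265, 267 and 241 CPM in Ctrl_Fc, and was at or near 0 in PDL1_Fc and Control. Trac, which encodes the constant part of a receptor chain, followed Cd3e, with 101, 101 and 91.7 CPM in PD1_Fc, 107, 83.9 and 89.9 CPM in Ctrl_Fc and 0 to 2 counts per library in PDL1_Fc and Control. Cd3d, another chain of that complex, did not: it had 0 counts in all libraries of PD1_Fc and Ctrl_Fc, against 1 to 8 counts per library in PDL1_Fc and 1 in each of Control. Lyz2, a gene of myeloid cells, had 20792, 21334 and 22614 CPM in PDL1_Fc and 17429, 21798 and 24912 CPM in Control. Of these 3 markers of T cells, Cd3e and Trac were at or near 0 in PDL1_Fc and Control, and Cd3d was at or near 0 in all 4 groups. In bulk libraries, fewer cells of a type and less RNA per cell cannot be told apart.

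PD-1 Fc binds PD-L1. By their labels, the PD1_Fc libraries against Ctrl_Fc ask what that binding does to activated T cells, but 79.9% to 80.4% of their reads were not aligned. By edgeR's quasi-likelihood test 0 of 10 members passed (0.0478% of 14653 genes called). Under an unadjusted p of 0.05 were 2 members, for which no share of all genes is given here. Psmb9 had 23.01, 19.02 and 18.6 CPM in PD1_Fc, against 26.5, 36.3 and 31.1 CPM in Ctrl_Fc. Its log2 difference was -0.57 (SE 0.15, unadjusted p = 0.000301, adjusted p = 0.260). DESeq2 called it (adjusted p = 0.00215), as did edgeR on these 6 libraries alone (adjusted p = 0.0312). Over all 14 settings its adjusted p ran from 0.00215 to 1. Tap1 had 117, 135 and 127 CPM in PD1_Fc, against 164, 154 and 144 CPM in Ctrl_Fc (-0.22 (SE 0.10, adjusted p = 0.926)). H2-K1 had 746, 732 and 817 CPM in PD1_Fc, against 873, 839 and 818 CPM in Ctrl_Fc, with the nearest values all but equal (-0.07 (SE 0.11, adjusted p = 0.985)).

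B2m in these libraries followed another gene. It had 74.8, 16.04 and 22.2 CPM in PD1_Fc and 14.4, 13.6 and 83.2 CPM in Ctrl_Fc, high in PD1_Fc_1 and Ctrl_Fc_3. Lyz2 was high in the same 2 libraries, at 126, 34.8 and 37.4 CPM in PD1_Fc and 33.4, 28.1 and 130.0 CPM in Ctrl_Fc, and Tapbp likewise, at 12.5, 9.62 and 7.59 CPM and 5.76, 6.95 and 13.9 CPM. Without these 2 libraries Psmb9 differed by -0.67 (adjusted p = 0.165). The part of myeloid message in the B2m level was not tested. With the libraries grouped by the treatment field, which puts both sets in PD1_Fc, 0 members passed and all 10 log2 differences were above 0.

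For PDL1_Fc against Control 0 of 10 members passed (0% of 14653 genes called), 0 were under an unadjusted p of 0.05 and DESeq2 called 0. B2m had 12818, 13047 and 12836 CPM in PDL1_Fc, against 12065, 12978 and 12575 CPM in Control, and H2-K1 5411, 5457 and 5297 CPM against 5599.7, 5402 and 5298 CPM. The median log2 difference was -0.02 over the members and 0 over all genes. The largest was Nlrc5, with 143, 148 and 155 CPM against 138, 144 and 115 CPM (0.16 (SE 0.10, adjusted p = 1.00)). The difference between the 2 contrasts was not past the threshold for any member either (0.00682% of genes called, and 1 member under an unadjusted p of 0.05). Psmb9 differed most there, by -0.55 (SE 0.18, adjusted p = 0.747), and DESeq2 called it (adjusted p = 0.0275).

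Across the sets, 10 of 10 members were lower in Ctrl_Fc than in Control (47.4% of genes lower) and in PD1_Fc than in PDL1_Fc (46.8% lower). Treatment, marker content, share of reads aligned and library set cannot be told apart there. The median log2 difference over the members was -4.30 for Ctrl_Fc against Control and -4.73 for PD1_Fc against PDL1_Fc, where it was -0.13 and -0.07 over all genes. B2m differed by -9.05 and Tapbp by -8.36 in Ctrl_Fc, while Tap1 differed least, by -2.48. Psmb9 made up 4.47% ± 0.632 of the reads of Psmb9 and Psmb6 in PD1_Fc, 6.77% ± 1.08 in Ctrl_Fc, 20.01% ± 0.231 in PDL1_Fc and 20.04% ± 0.478 in Control (SD, n = 3 each), in reads that also depend on transcript length. For Psmb8 with Psmb5 the shares were 24.3% ± 1.88, 25.7% ± 1.47, 73.4% ± 0.680 and 72.2% ± 0.522 in the same groups.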

How the data were processed

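Bulk values were the raw read counts per gene that the authors deposited for 12 libraries. STAR, HTSeq and mm10 are named in the submitters' processing notes, and versions were not given in the sources used here. Rows that name no gene held 42.6% to 88.2% of reads and were left out. Single-cell values were the deposited UMI counts of 5 libraries, and the file headers of 3 matrices name Cell Ranger 3.1.0. Each column was mapped to a sample, and 0 were left unmapped.

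Members and gene lists were chosen with earlier results of these data known. The 12 bulk libraries entered a single edgeR 4.0.16 fit (R 4.3.3) of quasi-likelihood type with robust estimates, TMM scaling and filterByExpr. Adjusted p-values are two-sided and Benjamini-Hochberg over all genes tested. Cells were required to have 200 genes or more and no more than 10% mitochondrial UMIs, and those with the top Scrublet scores (scanpy 1.11.5) were dropped at a rate of 0.8% per 1000 cells. Classes were set by marker UMIs, and counts summed per library and class were fitted by edgeR with the library as a block. Intervals at 95% cover counting error only.

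The alternatives tried were a DESeq2 1.42.0 test, its size factors within edgeR, no filter, other samples in the fit, no library block, a replicate block, a stricter marker rule, no doublet score, 20% mitochondrial UMIs, cells thinned to 2000 UMIs, median-ratio scaling and each library left out. Handling of shared barcodes, the minimum of 10 cells and the omission of PD1_Fc_1 with Ctrl_Fc_3 were added after seeing the data. Besides the members, up to 4 genes per list with the largest change past the threshold were named, and the 5 genes that correlate most with the members. Cd274, Cd3e, Cd3d, Trac, Lyz2 and Psmb7 in type 1 dendritic cells fall outside that rule or were chosen after their values were seen. A result withheld for evaluation is not reported here. Fits were tested on simulated data.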

Additional observations from a re-analysis of the deposited data

How the results depend on the processing

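For PD1_Fc against Ctrl_Fc, 0 members were called by edgeR, and 1 (Psmb9) by DESeq2 and 1 in the fit of only the libraries compared. For the difference of differences DESeq2 called 1, against 0. The replicate numbers did not pair the libraries, since deviations of same-numbered libraries correlated by -0.114 to 0.050, and with the replicate number as a block the counts of members called were 0 for PD1_Fc against Ctrl_Fc and PDL1_Fc against Control and 10 for both comparisons across the sets, as without it. For Cxcl9/Cxcl10-high macrophages the count fell to 0 with all classes in 1 fit and 0 with no library block, for neutrophils to 0 and for plasma cells to 0 with no library block. With each library left out, members called ranged from 7 to 9 for tumour cells, 7 to 10 for the Cxcl9/Cxcl10-high macrophages, 8 to 10 for migratory dendritic cells, 0 to 3 for neutrophils and 2 to 5 for plasma cells. For the bulk comparisons they were 0 or 10 throughout, as in the full fit. Over all edgeR and DESeq2 settings the highest adjusted p was 0.132 for H2-K1 and 0.0769 for Tap1 in tumour cells. For Psmb8 it was 0.109 in migratory and 0.128 in type 1 dendritic cells, so these calls too were lost in some setting. With all copies of shared barcodes kept, or none, the counts were 10 for tumour cells, 10 for Cxcl9/Cxcl10-high macrophages, 10 for migratory and 4 for type 1 dendritic cells. With cells thinned to 2000 UMIs, 20.4% of pairs passed the fold for PDL1 floxed/floxed-CD4Cre against CD4Cre (10.2% unthinned) and 21.6% for PDL1 floxed/floxed against WT (8.33% unthinned). In 3 cases a called pair turned round: Psmb10 in neutrophils of PDL1 floxed/floxed-CD4Cre (log2 0.00925) and of PDL1 floxed/WT-CD4Cre (0.473) without shared barcodes, and Tap2 in plasma cells of PDL1 floxed/floxed-CD4Cre (-1.69) when thinned. The causes were not tested. Of the other checks of single genes, 240 bulk values stayed on their side of the threshold and 3 gained a call, 464 class values stayed, 62 lost and 3 gained one, and 196 genotype values stayed while 20 moved. With 1 library per genotype, nothing separates genotype from library, and the stricter marker rule could not be run for plasma cells.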

Other observations

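The other class I heavy chains, which show peptides or lipids to innate-like T cells and natural killer cells, gave the widest median difference of the 6 lists in tumour cells and in migratory dendritic cells. Their median log2 difference was -2.34 over the 10 tested in tumour cells against macrophages and 2.05 over the 8 tested in migratory against type 2 dendritic cells. In plasma cells against B cells 2 of 8 fell and 0 rose, where 13.1% of all genes fell and 13.9% rose. B2m, their light chain, rose by 1.61 on the fitted log2 scale (0.76 to 0.90 in CPM). Without the library block edgeR called 0 of the 10 members in that comparison, with 2 under an unadjusted p of 0.05. The constitutive subunits Psmb5 (1.21) and Psmb6 (1.24) rose in plasma cells, and 0 of the 3 members of the immunoproteasome passed there. In the bulk comparison of PD1_Fc with Ctrl_Fc, edgeR called 0 genes of all 6 lists, whose medians ran from -0.02 to 0.10 on the log2 scale.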
